A study of Mus musculus with 2 samples.

Results

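Serotonin and the catecholamines are made and stored by a short series of enzymes and transporters, and 10 genes of that series were examined here: Tph1, Tph2, Th, Gch1, Ddc, Dbh, Slc18a1, Slc18a2, Maoa and Maob. The rule that chose them is their function and uses no measured value, although earlier results of these data were known when they were chosen. Every probe for a gene, control spots aside, whose RefSeq accession or description symbol named 1 of them was taken, which gave 14 probes of 41174 on the array and 10 genes of 16767 named there. The RNA came from the pancreas of newborn mice at postnatal day 3. One pool was made from 2 pups homozygous for the mutant allele Glis3zf (Glis3zf/zf, labelled Glis3KO), and the other from 2 wild-type pups. Glis3 is a transcription factor with Krüppel-like zinc fingers and a role in the development of pancreatic beta cells. The pools were compared with each other on 2 two-colour arrays in a dye swap: the mutant was in Cy5 on 1 array and in Cy3 on the other. The sources used here give neither the sex nor the strain of the pups. Each genotype is thus 1 sample, the arrays repeat the same RNA, and no test between genotypes was possible. All ratios below are log2 of mutant over wild type, and negative ratios mean less signal from the mutant pool. In whole tissue, fewer cells of a type and less RNA per cell cannot be told apart.

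Serotonin synthesis starts from tryptophan and catecholamine synthesis from tyrosine, and each starts with a hydroxylase that needs tetrahydrobiopterin as its cofactor. The hydroxylated amino acid is then decarboxylated, the amine is loaded into secretory vesicles, and after release and uptake it is broken down by monoamine oxidases at the mitochondrial surface. In the pancreas, beta cells make serotonin around birth and during pregnancy, when prolactin receptor signalling through Stat5 raises Tph1, and sympathetic nerve endings bring noradrenaline. Mast cells and platelets are other stores of serotonin within a tissue.

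The letters upstream of the cofactor gene and of the hydroxylases that use it are shown first: Gch1, which makes the cofactor and was lower in the mutant pool, and Tph1 and Th, whose enzymes use the cofactor and which were close to a log2 ratio of 0. Each is the 250 bases before a transcription start in RefSeq (GRCm38.p6), on the minus strand of the chromosome and written 5′ to 3′ along the gene. Capitals mark matches, on either strand, to the 5 motifs searched. Tph1 has 2 starts listed, and both are shown.
Gch1 (chr14:47189414-47189663): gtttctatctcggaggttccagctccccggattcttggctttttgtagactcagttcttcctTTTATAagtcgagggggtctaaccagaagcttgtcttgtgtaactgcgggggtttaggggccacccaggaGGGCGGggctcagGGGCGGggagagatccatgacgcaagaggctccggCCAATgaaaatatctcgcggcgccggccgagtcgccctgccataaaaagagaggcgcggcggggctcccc
Tph1, upstream start (chr7:46672538-46672787): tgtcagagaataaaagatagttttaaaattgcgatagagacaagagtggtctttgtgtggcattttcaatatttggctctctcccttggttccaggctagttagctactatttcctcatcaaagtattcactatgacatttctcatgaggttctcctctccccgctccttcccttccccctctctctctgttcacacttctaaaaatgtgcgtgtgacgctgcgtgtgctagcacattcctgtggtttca
Tph1, downstream start (chr7:46667378-46667627): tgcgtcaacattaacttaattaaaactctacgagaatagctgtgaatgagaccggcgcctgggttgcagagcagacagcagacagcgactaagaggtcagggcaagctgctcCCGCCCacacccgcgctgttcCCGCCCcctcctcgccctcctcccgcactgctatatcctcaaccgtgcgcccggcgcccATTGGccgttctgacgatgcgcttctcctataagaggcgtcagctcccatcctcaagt
Th (chr7:142899996-142900245): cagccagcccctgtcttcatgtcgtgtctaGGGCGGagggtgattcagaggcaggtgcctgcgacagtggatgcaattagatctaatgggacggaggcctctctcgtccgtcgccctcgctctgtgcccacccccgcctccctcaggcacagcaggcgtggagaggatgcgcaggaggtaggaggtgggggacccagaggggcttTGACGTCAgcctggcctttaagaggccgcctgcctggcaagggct

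The search covered windows of 300 bases, from 250 before to 50 after the start, on both strands, in 10 promoters of 8 of the genes, which leaves out Maob and Slc18a1. The cAMP response element TGACGTCA, which occurs in 1.79% of all 32851 promoters of this length, was in 2 of the 10. In Th its first base lies 45 bases before the start, as shown, and in Slc18a2 it lies 4 bases before the start. The CCAAT box (CCAAT, 37.4% of all promoters) was in 4 of the 10, and the TATA box (TATAAA, 13.6%) in 3. The GC box (GGGCGG, 35.7%) was in 5. Gch1 holds GC boxes 118 and 105 bases before the start and a CCAAT box at 70 bases, with a TATAAA match on the opposite strand at 188. The downstream Tph1 start has GC boxes at 138 and 117 bases and a CCAAT box at 58, all on the opposite strand, while the upstream start has no match. A G-rich motif of the kind bound by GLIS proteins, searched as TGGGGGG, is in 8.48% of all promoters and in 0 of the 10. These are matches of letters and not binding sites, and an absent match says only that these letters are not in the window. No 2 of the searched motifs overlapped in the sequences shown.

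The arrays had 41534 gene spots each, and between 94.0% and 96.8% of them were well above background in a channel. Median signals lay between 207 and 265 against a local background of 46.5 to 50. The difference between the arrays gave a technical SD of 0.08 log2 for the mean ratio, over 16448 genes that were not past a 2-fold size rule. The targeted gene, Glis3, had ratios of -0.02 and 0.01 on the arrays with the mutant in Cy5 and Cy3 respectively. The place of its probe relative to the mutation is not given here, so it does not check the labels. The tissue label was set against acinar genes, of which 14 were detected and 8 were saturated in both pools on both arrays. The markers of mutant and wild-type pools parted most in the islet hormones and in skeletal muscle, and these values are given beside the results below.

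Most of the amine genes had nearly the same signal in both pools, and Maob and Gch1 were lower in the mutant. Among the 10 genes, 9 were detected, meaning that on both arrays 1 genotype or the other was well above background, and Tph2 was not. No detected gene was past the 2-fold rule of size, which asks for a mean of at least 2-fold and at least 1.5-fold the same way on each array, and 0.382% of the 16511 detected genes of the whole array were past it (0.23% higher and 0.151% lower). At a smaller size, a mean of at least 1.5-fold with 1.2-fold on each array, Maob alone of the 9 was past the rule, and it was lower. Of all genes 1.04% were past this rule, 0.503% lower and 0.533% higher. A log2 ratio within 0.2 of 0 was found for 7 of the 9 (77.8%), against 87.6% of all genes. The median ratio was -0.02, and 0.00 over all genes. On both arrays 3 of the 9 were above 0 (32.5% of all genes) and 4 were below 0 (30.5%), and 2 had opposite signs (37.0%). The plot of ratios by probe shows the 2 lower genes apart from the others.

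**Figure D1:**
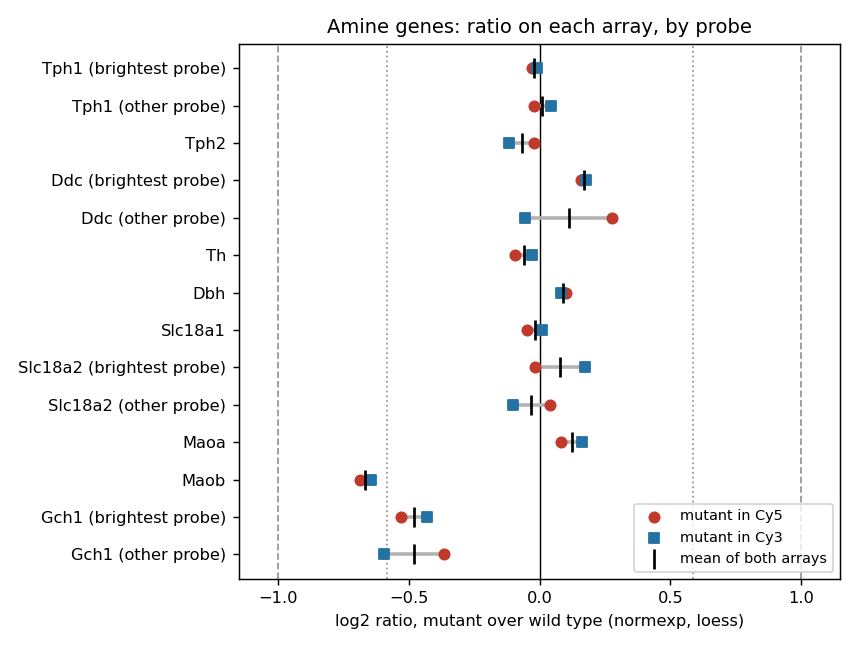
Log2 ratio of mutant over wild type (horizontal axis) for each of the 14 probes, with the mutant in Cy5 (circles) or Cy3 (squares), their mean (bar) and a grey line joining both arrays. Dotted lines stand at 1.5-fold and dashed lines at 2-fold; Maob at -0.67 lies beyond the lower dotted line, both Gch1 probes lie at -0.48, and Tph2 was not well above background.

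The hydroxylases start each pathway. Tph1, the tryptophan hydroxylase of tissues outside the brain, was read on chromosome 7 at 40732585 to 40732644 (NM_009414; coordinates here and below are those of the files, and the sources used here name no build for them). Its normalised signal, in log2 units, was 10.24 and 10.45 in the mutant pool and 10.27 and 10.46 in the wild type, with the mutant in Cy5 and in Cy3 respectively. The pools overlap, and the ratios were -0.03 and -0.01. A further Tph1 probe 9980 bases away was dim, with raw signals from 66.9 to 92.9 and the wild type well above background on only 1 array, and its ratios were -0.02 and 0.04. Neither probe showed a difference beyond the technical SD of 0.08 and 0.07 at its intensity.

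Tph2 is the tryptophan hydroxylase of serotonin neurons. Its probe (NM_173391, chromosome 10, 114763362 to 114763421) was well above background in the mutant on 0 arrays and in the wild type on 1. The raw signals were 61.6 and 71.4 in the mutant and 79.3 and 64.3 in the wild type, where the 95th percentile of negative control spots lay between 60.8 and 76.2. It was not well above background in the mutant, and no fold is given. Th, tyrosine hydroxylase, the first enzyme of catecholamine synthesis, was detected (NM_009377, chromosome 7, 137307032 to 137307091). Its normalised log2 signal was 7.17 and 7.48 in the mutant and 7.26 and 7.51 in the wild type. The pools overlap, and the ratios were -0.09 and -0.03, a mean of -0.06 against a technical SD of 0.07.

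Gch1, GTP cyclohydrolase, catalyses the first and rate-limiting step of tetrahydrobiopterin synthesis. Its brighter probe (NM_008102, chromosome 14, 42248438 to 42248497) had a normalised log2 signal of 7.61 and 7.58 in the mutant and 8.14 and 8.01 in the wild type. Both mutant values lie below both wild-type values. They are repeated readings of 1 pool per genotype, so a lack of overlap does not measure the spread between animals. How many of all genes lack such overlap was not counted. The ratios were -0.53 and -0.43, so that the mutant stood at 71.7% of the wild type, 1.39-fold lower. The mean of -0.48 is 6.29 times the technical SD of 0.08 at this intensity, and 0.902% of all genes had a mean this low or lower. A dimmer Gch1 probe 13994 bases away had ratios of -0.37 and -0.59, with the same mean of -0.48. Its normalised log2 signal was 6.81 and 6.75 in the mutant and 7.18 and 7.35 in the wild type, again without overlap. Gch1 was short of the 1.5-fold rule as processed here. With the scanner software's own ratio its mean was -0.66, past that rule, where 0.848% of all genes were lower by it, and a normexp offset of 0 gave -0.61, also past the rule, with 0.745% of all genes.

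Ddc, aromatic L-amino acid decarboxylase, makes serotonin and dopamine from the hydroxylated amino acids. Its brighter probe (NM_016672, chromosome 11, 11710110 to 11710169) had a normalised log2 signal of 10.001 and 10.11 in the mutant and 9.84 and 9.94 in the wild type. Both mutant values are the higher ones, with ratios of 0.16 and 0.18, a mean of 1.12-fold higher or 2.05 technical SDs. The other probe, 60942 bases away, had ratios of 0.28 and -0.05 and so no common direction on the arrays. Dbh, dopamine beta-hydroxylase, which makes noradrenaline inside the vesicle, was close to the wild type (NM_138942, chromosome 2, 27113724 to 27113783). Its normalised log2 signal was 9.62 and 9.57 in the mutant and 9.52 and 9.49 in the wild type. Here too both mutant values are the higher ones, although the ratios were only 0.10 and 0.08, a mean of 1.16 technical SDs.

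The vesicular monoamine transporters load amines into granules and vesicles. Slc18a1, the form of endocrine and chromaffin cells, was read on chromosome 8 at 68186679 to 68186738 (NM_153054). Its normalised log2 signal was 10.68 and 10.57 in the mutant and 10.72 and 10.56 in the wild type, so that the pools overlap, and its ratios were -0.05 and 0.01. Slc18a2, the form of neurons, mast cells, platelets and beta cells, had probes only 256 bases apart (NM_172523; the brighter on chromosome 19 at 58894916 to 58894976). The brighter probe had a normalised log2 signal of 9.01 and 8.88 in the mutant and 9.03 and 8.71 in the wild type. Its ratios were -0.02 and 0.17, and those of the dimmer probe 0.04 and -0.10. The arrays and the probes differ in direction for Slc18a2, and no difference between the pools is read from them.

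Maoa and Maob encode the monoamine oxidases, and lie next to each other on the X chromosome in opposite orientation, with Cypt1 before and Ndp after them among the protein-coding genes of RefSeq (GRCm38.p6). Maoa, whose enzyme prefers serotonin and noradrenaline, had a normalised log2 signal of 9.66 and 9.71 in the mutant and 9.58 and 9.55 in the wild type (NM_173740, chromosome X, 14924458 to 14924517). Both mutant values are the higher ones, with ratios of 0.08 and 0.16, a mean of 1.57 technical SDs. Maob, whose enzyme prefers phenylethylamine, had 8.68 and 8.82 in the mutant and 9.37 and 9.47 in the wild type (NM_172778, chromosome X, 14948242 to 14948301). Both mutant values lie below both wild-type values, again as repeated readings of 1 pool per genotype. The raw signals behind these values were 404.0 and 412.3 in the mutant and 794.7 and 687.8 in the wild type, over a local background of 45 to 50. The ratios were -0.69 and -0.64, so that the mutant stood at 63.0% of the wild type, 1.59-fold lower. The mean of -0.67 is 8.74 times the technical SD of 0.08, and 0.400% of all genes had a mean this low or lower. Over the 9 alternative ways of processing, Maob lay between -0.74 and -0.64. Maob was read from a single probe, so no other probe could be set against it. For such a gene the median over probes and the filters on dim probes leave the ratio as it was.

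The ratio of Maoa stood above that of Maob by 0.77 on the array with mutant Cy5 and by 0.81 on the other, although the probes start only 23784 bases apart. The neighbours, named after their values were seen, had mean ratios of 0.02 (Cypt1) and -0.04 (Ndp). Xist, the RNA of the inactive X chromosome in females, had 0.03. Of the Y-linked genes, Ddx3y had -0.01, Kdm5d 0.01, Uty 0.02 and Eif2s3y -0.27, from ratios of -0.46 and -0.07.

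**Figure D2:**
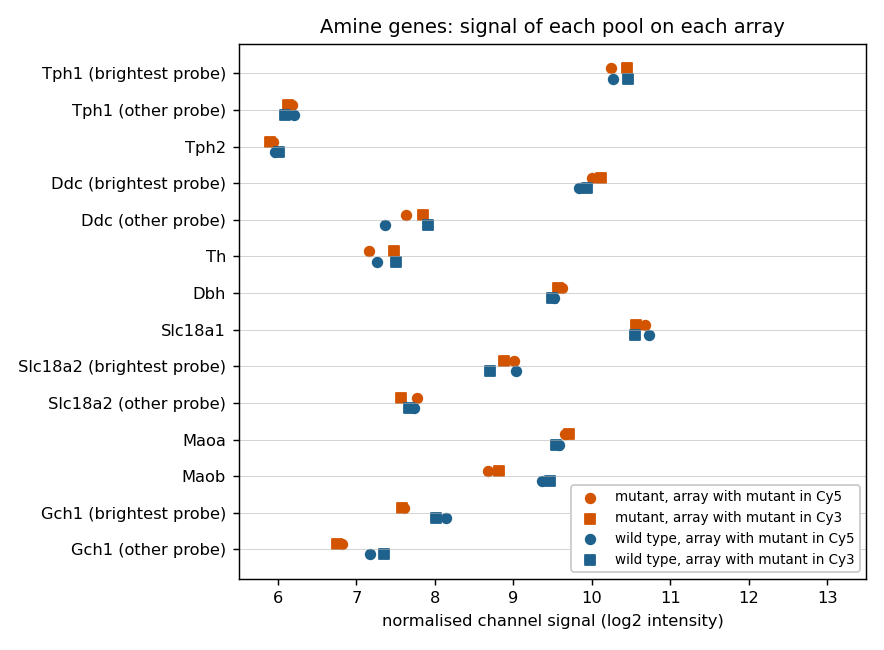
Normalised channel signal in log2 units (horizontal axis) of each probe in the mutant (orange) and wild-type (blue) pools, with circles for the array that had the mutant in Cy5 and squares for the other. Signals of different probes are not comparable with each other; within a probe, Maob was at 8.68 and 8.82 in the mutant and 9.37 and 9.47 in the wild type, and both Gch1 probes were also lower in the mutant on both arrays.

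**Figure D3:**
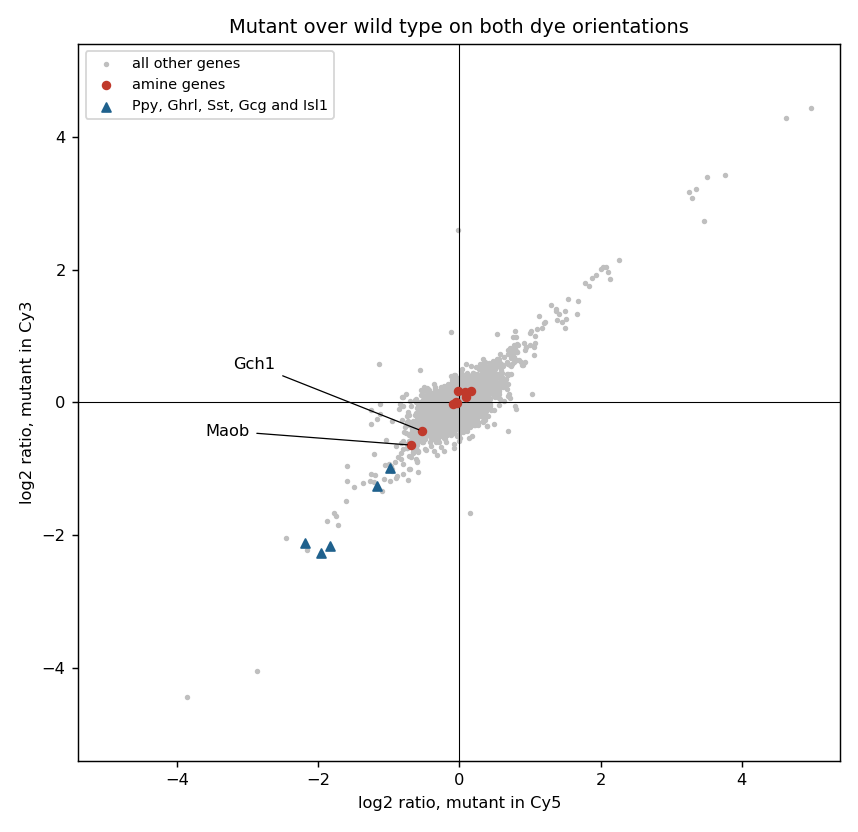
Log2 ratio of mutant over wild type of each detected gene with the mutant in Cy5 (horizontal axis) against the mutant in Cy3 (vertical axis). Maob and Gch1 lie below 0 on both axes, outside the cluster of the other 7 amine genes (red), and nearer to 0 than Isl1 and the islet hormone genes Ppy, Ghrl, Sst and Gcg (blue triangles).

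The other 7 genes of tetrahydrobiopterin metabolism were all detected, and none was past either rule of size. Their median ratio was -0.16, and both arrays put 6 of the 7 below 0, where 30.5% of all genes were. Qdpr, at -0.09, and Spr, at -0.24 and -0.0037, both named after their values were seen, were among the 6. Pts, which makes the next intermediate after Gch1, had ratios of -0.38 and -0.23, and -0.40 in the mean by its other probe. Pcbd2, a dehydratase that recycles the cofactor and also binds HNF1 proteins, had -0.28 and -0.26. The exception, named after its value was seen, was Gchfr, which encodes the feedback regulator of the Gch1 enzyme, at 0.04 and 0.13. The list's median lay between -0.24 and -0.08 on the 2 arrays.

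Other amine enzymes and the transporters showed no common direction. Of 13 detected enzymes that make, methylate, sulphate or oxidise amines and their aldehydes, 5 were above 0 on both arrays and 6 below. Their median was -0.04, and of all genes 32.5% were above 0 on both arrays and 30.5% below. Hdc, histidine decarboxylase, which makes histamine, had 0.37 and 0.33. Aldh1a1, an aldehyde dehydrogenase of the next step after monoamine oxidase, had -0.27 and -0.30. Of 8 amine transporters, 7 were detected, all but Slc22a3, with a median of 0.00. Slc6a4, the serotonin transporter that takes serotonin back into cells, had 0.24 and 0.08, and Slc22a2, an organic cation transporter, had -0.21 and -0.12. Among 16 detected genes of tryptophan, tyrosine and phenylalanine metabolism and transport the median was 0.05. Slc7a8, a transporter of large neutral amino acids, had -0.47 and -0.23. Wars, tryptophanyl-tRNA synthetase, had -0.21 and -0.27, and 0.02 in the mean by its other probe. No gene of these lists was past either rule of size.

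The receptors were near the wild type. All 14 serotonin receptor genes were detected, with a median of 0.06. On both arrays 8 of them were above 0 (32.5% of all genes) and 2 below (30.5%). The largest were Htr3a, the ion channel receptor, with 0.17 on both arrays, and Htr2a with 0.14 and 0.17. The 14 dopamine and adrenergic receptor genes had a median of 0.02, with 7 above 0 on both arrays (32.5%) and 1 below (30.5%). That gene was Drd1, a dopamine receptor, with -0.09 and -0.38, a dim probe that reached -0.67 under another way of processing, and the next in size was Adra2c, an adrenergic receptor, with 0.21 and 0.14. No receptor was past either rule of size as processed here.

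Prolactin and growth hormone signalling lies above Tph1 in beta cells. Its 7 listed genes had a median of -0.01, and none was past a rule of size. On both arrays 2 were above 0 (32.5% of all genes) and 3 below (30.5%), and 2 had opposite signs. Cish, a target gene of Stat5 that restrains cytokine receptors, was lower, with -0.51 and -0.26. Stat5b itself had -0.33 and -0.04, and 0.00 in the mean by its other probe. Those above 0, named after their values were seen, were the receptor genes Prlr and Ghr, with mean ratios of 0.11 and 0.12. Prlr had -0.08 by its other probe, and Ghr had 0.22 and 0.26 by its others. Socs2, also named after its value was seen, had 0.12 and -0.01. Of the 14 transcription factors of serotonin and catecholamine cells, 5 were above 0 on both arrays (32.5% of all genes) and 6 below (30.5%). Their median was 0.01. Isl1, a factor of islet endocrine cells and of sympathetic neurons, was the only one past the 1.5-fold rule. Its ratios were -0.98 and -0.99, which is 1.98-fold lower, just under the 2-fold rule, and it reached -1.12 under other ways of processing. The plot of pathway and cell type lists sets these medians side by side.

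**Figure D4:**
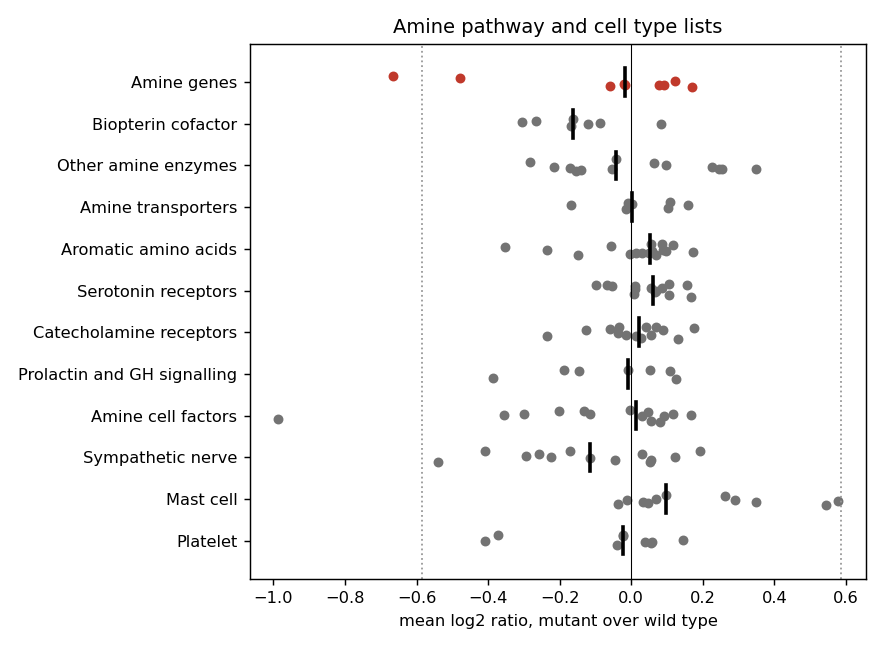
Mean log2 ratio of mutant over wild type (horizontal axis) of each detected gene (points, spread vertically within a list for legibility), by list, with the list's median as a black bar and dotted lines at 1.5-fold. The biopterin list has its median at -0.16, the amine genes (red) at -0.02, and the mast cell list at 0.10; Isl1 is the point at -0.99.

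Several cell types could carry the amine genes, and their markers were read from the same arrays. Of 13 detected markers of sympathetic neurons and chromaffin cells, 8 were below 0 on both arrays (30.5% of all genes) and 3 above, and none was past either rule of size. The median was -0.11, and it was -0.06 on the array with mutant Cy5 and -0.05 with the median over a gene's probes. Elavl4, a neuronal RNA-binding protein, had -0.54 on both arrays and -0.15 in the mean by its other probe (its value ranged from -0.88, by the software's ratio and past the 1.5-fold rule, to -0.34 over other ways of processing), and Stmn2, a protein of growing axons, had -0.35 and -0.46. The summed normalised signal of the list was 4352 and 4010 in the mutant and 4620 and 4328 in the wild type. Th and Dbh, which mark the same cells, were at -0.06 and 0.09.

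Of 11 detected markers of mast cells, which also store serotonin, 9 were above 0 on both arrays (32.5% of all genes) and 0 below, and none was past either rule of size. The median was 0.10, and it was 0.16 with a normexp offset of 0 and 0.21 with the scanner software's ratio or the deposited series table. Cma1, a chymase, had 0.61 and 0.54, a mean of 0.58 just under the 1.5-fold rule, and 0.52 by its other probe. By the software's ratio its mean was 0.60, past that rule. Cpa3, mast cell carboxypeptidase, had 0.68 and 0.41. The receptor genes Kit, Fcer1a and Ms4a2, named after their values were seen, had mean ratios of -0.04, -0.01 and 0.05. The summed signal of the list was 7849 and 7143 in the mutant and 5933 and 5908 in the wild type. Cma1 and Cpa3 are the brightest genes of the list and weigh most in this sum. Hdc, given above among the amine enzymes, belongs to this list too. Tph1 and Slc18a2, which mast cells express, had mean ratios of -0.02 and 0.08. Of 9 platelet markers, 3 were above 0 on both arrays (32.5% of all genes) and 3 below (30.5%). Their median was -0.02. Pf4, platelet factor, had -0.39 and -0.43, and Itgb3, an integrin of platelets, -0.45 and -0.29. Those above 0, named after their values were seen, were Selp, Gp5 and Gp9, with mean ratios of 0.14, 0.06 and 0.05. The summed signal of the platelet list was 5781 and 6964 in the mutant and 6796 and 7995 in the wild type. Pf4 and Itgb3 are the brightest genes of that list and weigh most in its sum.

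Among 8 detected markers of enterochromaffin and intestinal cells the median was 0.03, and Lmx1a and Cdx2 of the same list were not detected. Cck, the cholecystokinin gene, was the only one past the 1.5-fold rule, with 0.81 and 0.78, or 1.73-fold higher. Vil1, villin of the brush border, had -0.23 and -0.12. Of 7 adrenal cortex markers, 3 were above 0 on both arrays (32.5% of all genes) and 0 below (30.5%). The largest were Nr5a1, the steroidogenic factor, at 0.18 and 0.23, and Cyp21a1, a steroid hydroxylase, at 0.09 and 0.19. Of 7 liver and kidney markers, tissues rich in Maob and Ddc, 4 were above 0 on both arrays (32.5%) and 1 below (30.5%). The liver genes Alb, albumin, and Ahsg, fetuin, had 0.61 and 0.24, and 0.20 and 0.15. The kidney genes Kap and Slc34a1, named after their values were seen, had mean ratios of -0.06 and -0.02.

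Islet hormones and skeletal muscle genes differed far more than the amine genes. All 8 islet hormone genes were below 0 on both arrays, 7 of them past the 2-fold rule, with a median of -2.06. The exception, named after its value was seen, was Iapp, amyloid polypeptide, which was past neither rule, with -0.66 and -0.37. Ppy, pancreatic polypeptide, was 4.45-fold lower and Ghrl, ghrelin, 4.34-fold lower. Ins1 had -3.87 on its 1 array without saturation, and Ins2, whose wild-type signal was saturated throughout, was at least 11.0-fold lower, as a bound from channel signals. The summed signal of these hormones was 72684 and 62087 in the mutant and 238528 and 236319 in the wild type. The wild-type sums include the saturated Ins2 signal and can be too low. Over the same pools, Tph1, Ddc, Slc18a1 and Slc18a2, which beta cells can express around birth, had mean ratios of -0.02, 0.17, -0.02 and 0.08. All 8 skeletal muscle genes were higher and past the 2-fold rule, with a median of 3.25. Myl1 was 22.0-fold higher, Tnnc2 12.1-fold, Mylpf 11.0-fold and Myh8 9.75-fold, while the other probe of Myh8 had a log2 ratio of 0.06. Their summed signal was 22654 and 22925 in the mutant and 2034 and 2375 in the wild type. The 6 acinar genes not saturated everywhere had a median of -0.01, with Ctrl, a protease of the chymotrypsin family, 2.16-fold lower and Gp2, a glycoprotein of zymogen granules, 3.81-fold higher. The part of islet, muscle, mast cell or nerve RNA in the ratios of Maob and Gch1 was not tested.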

How the data were processed

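RNA from 1 pool of 2 pups per genotype was labelled from 500 ng of total RNA, and 750 ng of each cRNA was hybridised for 17 hours, per the labels. Per the file headers, the deposited scanner files give linear mean and local background intensity values for each channel, background-subtracted and dye-normalised signals, and a log10 ratio made from them. The series table deposited by the authors holds log2 ratios. Set against the scanner files, it equals the software's mutant over wild-type ratio to within 0.002 log2 for 99.99% (mutant in Cy5) and 99.98% (mutant in Cy3) of probes, and each column has a median of 0. The labels name Feature Extraction 7.5 and the file headers modules 8.5.1.1, and which made the values is not settled here.

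Intensities were corrected by normexp (offset 50) and normalised by loess within each array (limma 3.58.1, R 4.3.3, and the data.table package, version 1.17.8), with control spots at weight 0 and 15 and 53 outlier spots left out. Spots of a probe were averaged, ratios turned to mutant over wild type and averaged over both arrays. Channel signals were further scaled with Aquantile. The offset shrinks ratios of dim probes. Loess takes most genes as equal at each intensity. The steps and the 2-fold rule were tested on simulated data with planted changes of more than 2-fold. The 1.5-fold rule and changes as small as those of Maob and Gch1 were not simulated. Later steps used Python 3.11.15, numpy 2.4.6, pandas 2.3.3 and matplotlib 3.10.9.

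Probes were named through RefSeq (GRCm38.p6): 22064 of 41174 by accession, 142 by another RefSeq accession, 611 by description symbol and 494 by an older symbol, with 17863 unnamed here. A gene was read from its brightest probe not saturated throughout. Named were the 10 genes with every probe, Glis3, from each pathway list the members past a rule of size and otherwise the 2 largest ratios, and from each cell type list up to 4 past the 2-fold rule and otherwise the 2 largest. The genes and lists were chosen with earlier results of these data known. The number of arrays limits the precision, and the spread given is technical. The alternatives tried were a normexp offset of 0, the software's ratio, median centring, the deposited series table, each array alone, the median over probes, no filter on dim probes and a stricter one. Promoters of Maob and Slc18a1 were not used here.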

Additional observations from a re-analysis of the deposited data

How the results depend on the processing

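The count of amine genes past the 2-fold rule was 0 under all 9 alternatives, and the count of all genes past it lay between 58 and 94, against 63. The count past the 1.5-fold rule rose from 1 (Maob) to 2 (Maob and Gch1) with a normexp offset of 0, with the scanner software's own ratio and with the deposited series table, which holds that ratio. The median over the amine genes went from -0.018 to -0.066 with median centring in place of loess. Maob and Gch1 (-0.66 to -0.43) were below 0 under all 9 alternatives, as were Tph1 and Th, and Ddc, Dbh and Maoa were above 0 under all 9. Slc18a1 was above 0 in 1 and Slc18a2 below 0 in 1. The alternatives are not independent. The median over probes cannot move a gene with a single probe, such as Maob. The filters on dim probes change which genes are counted and left the ratios of the detected amine genes as they were. The series table repeats the software's ratio. Tph1 stayed close to 0, between -0.09 and -0.0047. The dimmer Gch1 probe had -0.83 by the software's ratio. No paired analysis was possible because each genotype is 1 pool and the arrays repeat it. Dim probes such as those for Tph2 and the dimmer Tph1 probe cannot show a difference at these signals over background.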
